A study of Mus musculus with 9 samples.

Results

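The genes described are 7 transporters that set ion gradients in neurons: 3 beta subunits of the sodium pump (*Atp1b1*, *Atp1b2*, *Atp1b3*), a pair of plasma membrane calcium pumps (*Atp2b1*, *Atp2b2*) and a pair of chloride cotransporters (*Slc12a2*, *Slc12a5*). They were picked by symbol from the 25239 gene names listed in the tables of the series, and all 7 passed the filter on low values. RNA-Seq was made from whole retinas of P42 mice, with both eyes of 1 animal in each of 9 libraries. The mice were C57BL/6J of 3 genotypes with 3 libraries each, which the submitters describe as taken from the same litters. These were wild type (+/+), *Rbpms*-CreERT2/+ with 1 knock-in allele (Cre/+) and *Rbpms*-CreERT2/CreERT2 with 2 (Cre/Cre). The knock-in joins a P2A-CreERT2 cassette to the end of the coding sequence of *Rbpms*, an RNA-binding protein that marks retinal ganglion cells, so Cre is driven by the *Rbpms* locus. The labels give no tamoxifen for these samples, and whole retina holds few ganglion cells among many rods. The comparison asks whether 1 or 2 knock-in alleles went with a change in the retinal transcriptome.

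The sodium pump exchanges sodium for potassium with the energy of ATP, and the resting potential of a neuron and the dark current of photoreceptors depend on it. Its catalytic alpha subunit needs a beta subunit to fold and reach the membrane. Calcium pumps of the plasma membrane expel calcium that has entered through channels, for example at photoreceptor terminals. NKCC1 (*Slc12a2*) carries chloride into cells and KCC2 (*Slc12a5*), which is specific to neurons, carries it out, so their balance sets whether GABA and glycine inhibit a cell.

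In these retinas none of the 7 genes passed the adjusted test between any genotypes. The clearest difference was in *Slc12a5*, at 489 TPM on average in Cre/+ against 557 TPM in +/+ with no overlap between the libraries. This did not pass adjustment either, and 22.2% of all genes tested did not overlap between Cre/+ and +/+ (10.3% lower). *Atp1b2* was the highest of the 7 in all 9 libraries. *Atp2b1* was the gene whose level depended most on the measure: its deposited TPM was 223 on average, while its deposited coverage corresponded to 26.4 on the same scale.

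TPM is the abundance of transcripts for their length, scaled to the same total of 1000000 in each library. In mm10 coordinates, *Atp1b1* lies on chromosome 1 (164437099 to 164458355, minus strand), *Atp1b2* on chromosome 11 (69599728 to 69605960, minus) and *Atp1b3* on chromosome 9 (96332656 to 96364431, minus). *Atp2b1* lies on chromosome 10 (98914642 to 99026143, plus), *Atp2b2* on chromosome 6 (113743831 to 114042080, minus) and *Slc12a5* on chromosome 2 (164960846 to 164999731, plus). Each gene had 1 row in each table.

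Some libraries stood apart. Library Cre/Cre 1 gave 9.21% of its TPM to the ribosomal precursor Rn45s, against 0.0827% to 0.336% in the others, and its size factor from median ratios was 0.917 against 0.985 to 1.03. Of the 7 genes, 6 had their lowest TPM in this library, as did 38.6% of all 15198 genes tested. Lens genes (6 in the list) added up to 902 TPM in Cre/Cre 2 and to 10.7 to 201 TPM in the others. *Xist*, the RNA of the silenced X chromosome, was at 2.08 to 3.16 TPM in Cre/+ 3, Cre/Cre 1 and Cre/Cre 3 and at 516 to 585 TPM in the other libraries. None of the libraries with low *Xist* was +/+, so *Xist* was not balanced between the genotypes. *Rbpms* itself measured 38.4 to 43.4 TPM in +/+, 31.3 to 33.1 TPM in Cre/+ and 19.1 to 24.2 TPM in Cre/Cre. The 6 rod markers (among them *Gnat1* and *Pde6b*) summed to 40239 to 48827 TPM, and every listed marker of rods, bipolar, amacrine, ganglion and Müller cells was above 0. Aligned bases came to 4.05 to 4.65 gigabases a library.

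Among the beta subunits, *Atp1b2* (beta2) was first described as an adhesion molecule of glia. Its TPM was 1369, 1340 and 1376 in the +/+ libraries 1 to 3, 1320, 1352 and 1358 in Cre/+, and 1180, 1345 and 1352 in Cre/Cre. Only Cre/Cre 1 lay far from the rest, and the genotypes overlapped. The means were 1362 ± 19.1 (SD, n = 3), 1344 ± 20.3 and 1292 ± 97.1 TPM, and 99.7% of the tested genes were lower. *Atp1b2* made up 67.1% to 69.3% of the summed TPM of the beta subunits in each library.

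*Atp1b1* (beta1), the usual beta subunit of neurons, measured 507, 546 and 514 TPM in +/+, 527, 541 and 520 TPM in Cre/+, and 438, 491 and 507 TPM in Cre/Cre. All 3 Cre/Cre libraries lay below all libraries of both other genotypes, although the highest of them, at 506.55 TPM, was barely under the lowest +/+ library at 506.91 TPM. The means were 522 ± 20.9, 529 ± 10.7 and 479 ± 35.9 TPM (SD, n = 3). It held 25.1% to 27.3% of the summed beta subunit TPM.

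*Atp1b3* (beta3) was the lowest of the 3, at 105, 112 and 95.4 TPM in +/+, 110, 121 and 116 TPM in Cre/+, and 94.3, 121 and 109 TPM in Cre/Cre. These ranges overlapped, with means of 104 ± 8.47, 116 ± 5.19 and 108 ± 13.5 TPM (SD, n = 3). Its share of the summed beta subunit TPM was 4.80% to 6.19%. *Atp1b4*, the remaining gene of the family, held at most 0.00663% and was listed at 0 in 7 of the 9 libraries.

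Of the calcium pumps, *Atp2b1* (PMCA1) is the widely expressed form. It measured 232, 217 and 197 TPM in +/+, 227, 238 and 253 TPM in Cre/+, and 186, 213 and 250 TPM in Cre/Cre. The Cre/Cre libraries spanned nearly the whole range of the other genotypes. The means were 215 ± 17.7, 239 ± 12.7 and 216 ± 32.2 TPM (SD, n = 3).

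*Atp2b2* (PMCA2), a fast pump of sensory cells and neurons, was at 57.2, 48.5 and 55.1 TPM in +/+, at 49.3, 52.4 and 56.9 TPM in Cre/+, and at 45.2, 49.6 and 57.5 TPM in Cre/Cre. No genotype stood apart from another. Its means were 53.6 ± 4.53, 52.8 ± 3.80 and 50.8 ± 6.19 TPM (SD, n = 3). By TPM, *Atp2b1* held 66.4% to 71.6% and *Atp2b2* 15.4% to 18.6% of the 4 plasma membrane calcium pumps together.

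*Slc12a5* measured 548, 532 and 591 TPM in +/+, 480, 479 and 508 TPM in Cre/+, and 484, 502 and 544 TPM in Cre/Cre. Every Cre/+ library lay below every +/+ library, and the Cre/Cre libraries overlapped both. The means were 557 ± 30.5, 489 ± 16.5 and 510 ± 30.9 TPM (SD, n = 3). It was the only one of the 7 genes whose lowest value was not in Cre/Cre 1 but in Cre/+ 2.

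*Slc12a2* was the lowest of the 7 genes, at 29.1, 26.2 and 24.4 TPM in +/+, 32.2, 28.9 and 29.9 TPM in Cre/+, and 23.5, 28.5 and 31.1 TPM in Cre/Cre. The genotypes overlapped, with 2 of the 3 Cre/+ libraries above all +/+ libraries. The means were 26.6 ± 2.41, 30.3 ± 1.72 and 27.7 ± 3.87 TPM (SD, n = 3). The plot of levels shows these values.

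**Figure D1:**
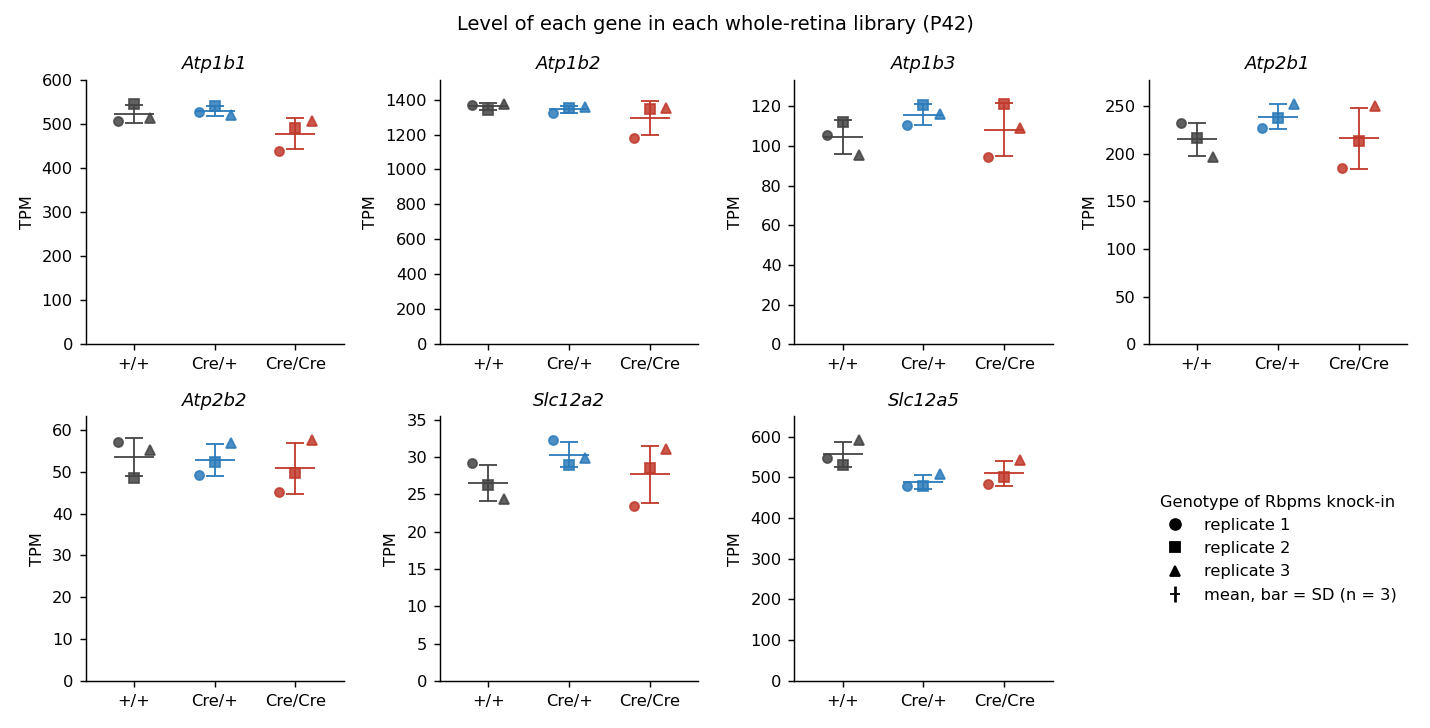
TPM of each of the 7 genes (vertical axes, from 0) in the +/+, Cre/+ and Cre/Cre libraries; circles, squares and triangles are replicates 1, 2 and 3, long bars the mean and capped bars the SD (n = 3). The 3 Cre/+ points of *Slc12a5* sit at 479 to 508 TPM, under the +/+ points at 532 to 591 TPM, and Cre/Cre replicate 1 is the lowest point in the other 6 panels.

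By mean TPM over the 9 libraries, *Atp1b2* (1333) was followed by *Slc12a5* (518), *Atp1b1* (510), *Atp2b1* (223), *Atp1b3* (109), *Atp2b2* (52.4) and *Slc12a2* (28.2). The neighbours *Slc12a5* and *Atp1b1* did not differ beyond their spread, since *Slc12a5* was higher in 5 of the 9 libraries. Each other neighbouring pair kept its order in 9 of 9 libraries with no overlap of ranges. The coefficient of variation over the 9 libraries ran from 4.45% for *Atp1b2* to 10.5% for *Slc12a2*, and the median for the 7359 tested genes at or above the level of *Slc12a2* was 7.77%.

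This order was not the same on the other deposited measure. The tables also give coverage, the mean number of reads over each base of a gene. In each library the ratio of coverage to FPKM took 1 common value in 58.1% to 58.7% of the rows with a coverage above 5. A gene's own ratio relative to this value, times its TPM, gives its coverage on the TPM scale. For *Atp1b1*, *Atp1b2* and *Slc12a2* this equalled the TPM to 3 digits. *Atp2b2* came to 0.934, *Atp1b3* to 0.824 and *Slc12a5* to 0.525 of the TPM. *Atp2b1* came to 0.118 of it in every library, and only 1.43% of the tested genes had a lower ratio.

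On the coverage scale *Atp2b1* thus averaged 26.4 (21.9 to 29.8 over the 9 libraries). This was below the 49.0 of *Atp2b2* (42.3 to 53.8), the reverse of their order by TPM, and overlapped the 28.2 of *Slc12a2*. *Slc12a5* averaged 272 (252 to 309) on this scale, below the 510 of *Atp1b1* with no overlap. GENCODE vM21 lists 11 transcripts of *Atp2b1* from 454 to 7130 bases long and 10 of *Slc12a5* from 422 to 6028 bases; the part of transcript length in these ratios was not tested. The ratio of a gene varied little between libraries (0.522 to 0.527 for *Slc12a5*), so differences between genotypes are by construction nearly the same on both scales.

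**Figure D2:**
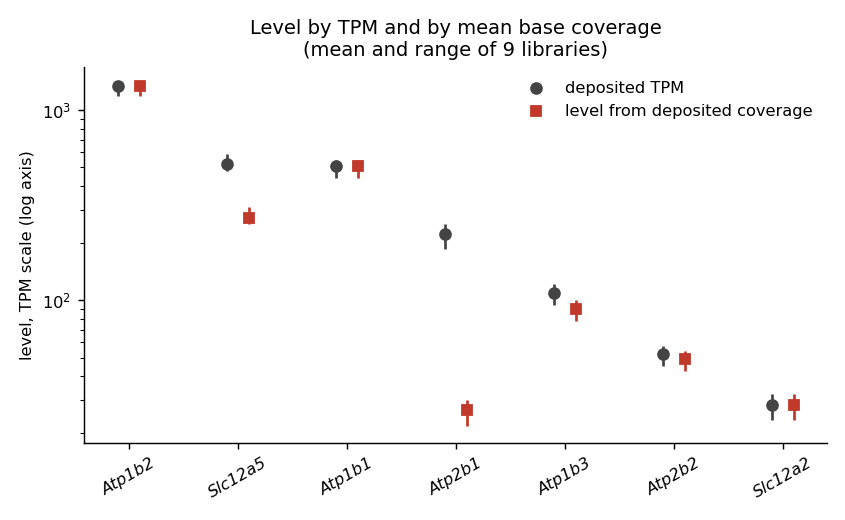
Mean level of each gene on a log axis in TPM units, from the deposited TPM (grey circles) and from the deposited coverage put on the same scale (red squares); vertical lines span the lowest and highest of the 9 libraries. The squares and circles coincide for *Atp1b2*, *Atp1b1* and *Slc12a2* and are farthest apart for *Atp2b1*, at 223 and 26.4.

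*Slc12a5* is shown with its upstream sequence because it was the gene with the clearest difference and RefSeq lists more than 1 start for it. RefSeq promoter windows (GRCm38.p6, 250 bases before a start) matched 5 of the 7 genes with 10 windows in all, and 2 of these belonged to *Slc12a5*. Both are printed from the plus strand of chromosome 2 up to the first base that GENCODE places in an exon, which leaves out 44 and 5 bases next to the starts at 164960846 and 164967988. Capitals mark matches to GGGCGG, the GC box, or to CCAAT on either strand.
Upstream start, chr2:164960596-164960801: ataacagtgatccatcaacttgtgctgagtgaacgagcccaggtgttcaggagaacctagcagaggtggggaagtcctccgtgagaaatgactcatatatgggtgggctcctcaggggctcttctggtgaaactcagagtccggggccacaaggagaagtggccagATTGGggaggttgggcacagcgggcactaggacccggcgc
Downstream start, chr2:164967738-164967982: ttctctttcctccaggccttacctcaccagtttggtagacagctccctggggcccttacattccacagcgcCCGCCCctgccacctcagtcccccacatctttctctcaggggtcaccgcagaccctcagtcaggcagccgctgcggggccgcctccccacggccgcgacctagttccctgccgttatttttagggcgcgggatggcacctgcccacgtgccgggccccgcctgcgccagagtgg
The full window of the upstream start held 1 CCAAT match, on the minus strand, and no GGGCGG or TATAAA, and 61.2% of its bases were G or C. The window of the downstream start held 1 GGGCGG match and no CCAAT or TATAAA, with 67.2% G or C. Of all 32851 windows of 250 bases in the table, 32.7% held GGGCGG, 33.8% CCAAT and 12.4% TATAAA on either strand, and the median G and C content was 52.4%. These matches describe letters only, and the gene tables do not separate transcripts of the starts.

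In the comparison of Cre/+ with +/+, *Slc12a5* was lower and the other 6 genes were within the spread between libraries. Each log2 difference is that of TPM + 1 from limma, adjusted by Benjamini-Hochberg over 15198 genes. For *Slc12a5* it was -0.19 (95% interval -0.34 to -0.03, SE 0.073), with an unadjusted p of 0.0216 and an adjusted p of 0.409 from limma. Of the 7 genes, 0 passed the limit of 0.05 on the adjusted p, which 0.00658% of all genes passed, or 1 gene. An unadjusted p under 0.05 was found for 1 of the 7 and for 10.7% of all genes (5.82% lower). *Slc12a5* was also the 1 gene of the 7 whose genotypes did not overlap, as was the case for 22.2% of all genes (10.3% lower).

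The largest positive difference was that of *Slc12a2*, at 0.19 (-0.04 to 0.41, adjusted p = 0.522 by limma). *Atp2b1* (0.15, -0.06 to 0.36, adjusted p = 0.571) and *Atp1b3* (0.15, -0.05 to 0.35, adjusted p = 0.557) were nearly as high. *Atp1b1* (0.02), *Atp1b2* (-0.02) and *Atp2b2* (-0.02) lay near 0, with limma's adjusted p from 0.938 to 0.959. Of the 7 genes, 3 were below 0, as were 49.6% of all genes, and their median was 0.02, against 0.00 over all genes.

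The difference in *Slc12a5* kept its sign in each setting tried, at -0.22 to -0.14 with 1 library left out and at -0.20 with *Xist* as a covariate. Its unadjusted limma p rose to 0.109 without +/+ 3, to 0.0684 without Cre/+ 1 and to 0.0757 without Cre/+ 2. Beside it, the 8 ganglion cell markers (among them *Pou4f1*, *Nefl* and *Thy1*, none at 0) summed to 1510 to 1598 TPM in +/+ and 1450 to 1508 TPM in Cre/+, and the 5 blood genes to 150 to 182 and 92.5 to 105 TPM. The part of either in the result was not tested. In bulk tissue, fewer cells of a type and less RNA in each cell cannot be told apart.

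In the comparison of Cre/Cre with +/+, the beta subunit *Atp1b1* was the 1 gene of the 7 whose libraries did not overlap, and it was lower in Cre/Cre. Such genes made up 10.8% of all genes tested, and 8.05% were lower. Its log2 difference was -0.13 (95% interval -0.28 to 0.03, SE 0.074), with a limma p of 0.102 before and 0.805 after adjustment. That of *Slc12a5* was also -0.13 (-0.28 to 0.03, adjusted p = 0.806 by limma). An adjusted p of at most 0.05 was found for 0 of the 7 genes and for 0.00658% of all genes, again 1 gene. An unadjusted p under 0.05 was found for 0 of the 7 and for 6.97% of all genes.

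*Atp1b2* and *Atp2b2* both differed by -0.08, *Atp2b1* by -0.00, and *Atp1b3* and *Slc12a2* by 0.05, with adjusted p from 0.891 upward by limma. Of the 7 genes, 5 had a difference below 0, against 57.7% of all genes. With Cre/Cre 1 left out it was 4 of the 7, and the median of all genes turned from -0.02 to 0.02. Without Cre/Cre 1, *Atp1b1* was at -0.07, with an unadjusted limma p of 0.25, and *Slc12a5* at -0.09. In the same fit *Atp2b1* turned to 0.10 and *Atp1b3* was at 0.14. With *Xist* as a covariate, *Atp1b1* was at -0.09, with an unadjusted limma p of 0.327 against 0.102 in the main fit. Without Cre/Cre 3, the unadjusted limma p of *Atp1b1* fell to 0.0429 and that of *Slc12a5* to 0.0356, and the adjusted values stayed at 0.624 and 0.602. The ganglion cell markers summed to 1111 TPM in Cre/Cre 1 and to 1346 and 1332 TPM in Cre/Cre 2 and 3. All lay below both other genotypes without overlap. The 5 blood genes summed to 185 to 300 TPM in Cre/Cre, above both other genotypes without overlap. The 5 vessel markers summed to 169 to 199 TPM in Cre/Cre, below the 202 to 223 TPM of +/+. The part of these groups in the level of *Atp1b1* was not tested. In retinal whole-mounts, the study reported no significant difference between genotypes in the number of RBPMS-positive or POU4F1-positive cells.

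In the comparison of Cre/Cre with Cre/+, which differ by 1 allele, *Atp1b1* again did not overlap and was lower, as 7.23% of all genes were and 12% in either direction. Its log2 difference was -0.15 (95% interval -0.30 to 0.01), with a limma p of 0.0617 before and 0.74 after adjustment. An adjusted p of at most 0.05 was found for 0 of the 7 and for 0.0132% of all genes, and an unadjusted p under 0.05 for 0 of the 7 and for 6.58% of all genes. *Atp2b1* (-0.15), *Slc12a2* (-0.13), *Atp1b3* (-0.10), *Atp2b2* (-0.06) and *Atp1b2* (-0.06) were also below 0, and *Slc12a5* was at 0.06. So 6 of the 7 genes were below 0, against 59.2% of all genes, with a median of -0.10. Without Cre/Cre 1 it was 4 of the 7, with a median of -0.01. The difference of *Atp1b1* was then -0.09 and that of *Atp2b1* -0.05. The 3 comparisons share libraries, so their results for a gene are not independent.

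Over the 7 genes and 3 comparisons, the 95% intervals reached from -0.36 to 0.41 on the log2 scale, so none of them held the 2-fold change that the study used as its limit. Changes of a size within these intervals are not excluded by the data.

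**Figure D3:**
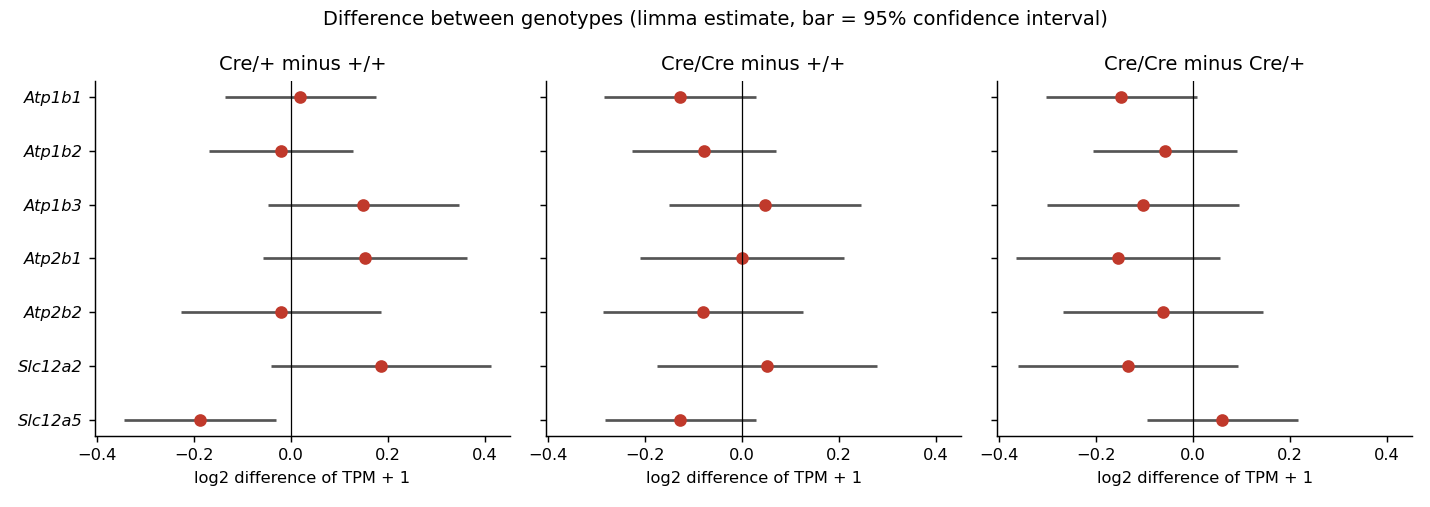
Log2 difference of TPM + 1 for each gene (points) with its 95% confidence interval from limma (bars, 9 libraries in 1 model), in the comparisons of Cre/+ with +/+, Cre/Cre with +/+ and Cre/Cre with Cre/+. The interval of *Slc12a5* between Cre/+ and +/+, from -0.34 to -0.03, is the one that leaves out 0.

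Ratios of TPM within a library do not depend on its total and are given as a description. The share of all gene pairs whose ratios do not overlap was not computed. By coverage, *Slc12a5* came to 0.525 of its TPM and *Slc12a2* equalled it, so their ratio was lower on that scale. The ratio of *Slc12a5* to *Slc12a2*, chloride exporter to importer, averaged 21.1 ± 2.82 (SD, n = 3) in +/+. It was 16.2 ± 1.12 for Cre/+ and 18.6 ± 1.76 for Cre/Cre. The Cre/+ libraries (14.9 to 17.0) lay below the +/+ libraries (18.8 to 24.3), and the Cre/Cre libraries (17.5 to 20.6) overlapped the latter and lay just above Cre/+. The ratio of *Atp1b1* to *Atp1b3* was 5.02 ± 0.318, 4.58 ± 0.173 and 4.45 ± 0.343. Its lowest +/+ value, 4.81, stood just above the highest in Cre/+, 4.78, and in Cre/Cre, 4.65.

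The ratio of *Atp1b2* to *Atp1b1* was 2.61 ± 0.137, 2.54 ± 0.0637 and 2.70 ± 0.0348 (SD, n = 3). That of *Atp2b1* to *Atp2b2* by TPM was 4.03 ± 0.451, 4.53 ± 0.0846 and 4.25 ± 0.129. Both overlapped between +/+ and either knock-in genotype, and neither overlapped between Cre/+ and Cre/Cre. The ratio of *Atp1b2* to *Atp1b1* was 2.50 to 2.61 in Cre/+ and 2.67 to 2.74 in Cre/Cre, and that of *Atp2b1* to *Atp2b2* 4.44 to 4.61 and 4.10 to 4.35.

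**Figure D4:**
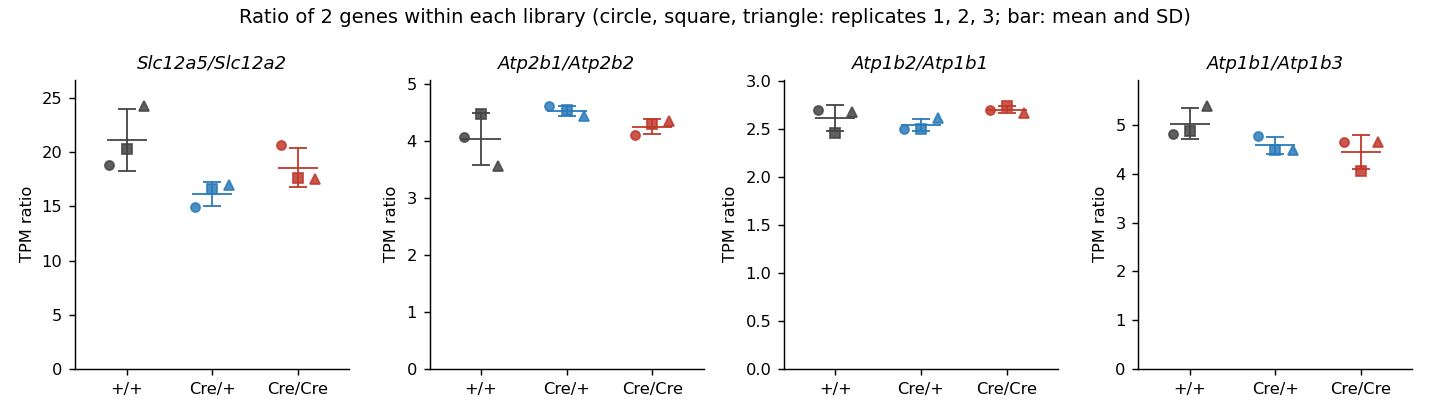
Ratio of the TPM of 2 genes within each library (vertical axes, from 0) by genotype; circles, squares and triangles are replicates 1, 2 and 3, long bars the mean and capped bars the SD (n = 3). The Cre/+ points of *Slc12a5*/*Slc12a2*, at 14.9 to 17.0, lie under the +/+ points at 18.8 to 24.3.

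Other genes of the 3 systems were taken from lists of 17 sodium pump partners, 21 genes of calcium clearance and 15 chloride cotransporters and their kinases, of which 12, 20 and 12 were tested. None of the 44 passed the adjusted test in any comparison. In the same order, an unadjusted p under 0.05 was found between Cre/+ and +/+ for 3, 1 and 2 genes, beside the 10.7% of all genes given above. Between Cre/Cre and +/+ it was found for 1, 1 and 0 genes (6.97% of all genes), and between Cre/Cre and Cre/+ for 2, 1 and 0 (6.58% of all genes). Libraries of Cre/+ and +/+ did not overlap for 6, 7 and 5 genes of the lists, against 22.2% of all genes. For Cre/Cre and +/+ this held for 2, 2 and 1 genes (10.8% of all genes), and for Cre/Cre and Cre/+ for 1, 2 and 2 (12% of all genes).

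Between Cre/+ and +/+, 10 of the 12 sodium pump partners were below 0 with a median of -0.12, against 49.6% and 0.00 for all genes. *Fxyd1* (phospholemman), a small regulator of the pump, was at 96.7, 101 and 90.2 TPM in +/+, 74.6, 83.4 and 72.4 TPM in Cre/+, and 61.5, 90.8 and 68.6 TPM in Cre/Cre. Its Cre/+ libraries all lay below +/+, and Cre/Cre 2 reached into the +/+ range. The log2 differences from +/+ were -0.32 in Cre/+ (adjusted p = 0.404) and -0.40 in Cre/Cre (adjusted p = 0.543), both by limma and both against the same +/+ libraries.

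*Nkain4*, whose product interacts with the pump, was at only 2.35 to 7.03 TPM and differed by -0.62 between Cre/+ and +/+ (adjusted p = 0.431 by limma). *Fxyd7*, another regulator of the pump in neurons, differed by 0.28 between Cre/Cre and Cre/+ (adjusted p = 0.74 by limma), with overlapping libraries. It was at 37.3, 24.5 and 31.6 TPM in Cre/Cre and 24.9, 26.0 and 24.5 TPM in Cre/+. Its highest value was in Cre/Cre 1 and its lowest in Cre/Cre 2.

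In the calcium list the highest were *Slc24a1* (937 to 1198 TPM), the sodium, calcium and potassium exchanger of rod outer segments, *Bsg* (874 to 1051 TPM), a partner of calcium pumps and lactate transporters, and *Calm2* (765 to 997 TPM), one of 3 calmodulin genes. *Atp2c1*, the calcium and manganese pump of the Golgi, was at 116 ± 7.71 TPM in +/+ and higher in all Cre/+ libraries, with a log2 difference of 0.22 (adjusted p = 0.424, limma). *Calm3* was lower in all Cre/Cre libraries than in +/+, by -0.16 (adjusted p = 0.698, limma). It was also lower in all Cre/+ libraries than in +/+, by -0.13 (adjusted p = 0.501, limma). *Slc24a3*, an exchanger of the same family as *Slc24a1*, differed by -0.17 between Cre/Cre and Cre/+ (adjusted p = 0.74). In that comparison 18 of the 20 calcium genes were below 0, against 59.2% of all genes, with a median of -0.13. Of the 20, 15 had their lowest value in Cre/Cre 1. Without this library 14 were below 0 between Cre/Cre and Cre/+, with a median of -0.04, while the median of all genes turned from -0.03 to 0.02. Between Cre/+ and +/+, which shares the Cre/+ libraries, only 3 of the 20 were below 0, against 49.6% of all genes, with a median of 0.06. Between Cre/Cre and +/+ it was 13 of the 20, against 57.7% of all genes, with a median of -0.05.

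The other plasma membrane calcium pumps, *Atp2b3* (19.7 to 25.7 TPM) and *Atp2b4* (19.0 to 23.4 TPM), were less abundant than *Atp2b1* and *Atp2b2* by TPM. Between Cre/Cre and +/+, *Atp2b3* was lower without overlap, at -0.18 (-0.37 to 0.02, adjusted p = 0.776, limma), and *Atp2b4* overlapped at 0.07.

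Of the chloride list, *Cab39*, a scaffold that activates the kinases, was at 98.5 to 120 TPM, and *Wnk1*, the kinase at the head of the cascade, at 96.3 to 123 TPM. *Stk39* (SPAK) phosphorylates both cotransporters, which activates NKCC1 and inhibits KCC2. It was at 55.6 ± 3.23 TPM in +/+ and 64.1 TPM on average in Cre/+, a log2 difference of 0.20 (adjusted p = 0.449 by limma) with overlapping libraries. *Slc12a9*, of the same transporter family, differed by -0.28 (adjusted p = 0.404), also with overlap. The kidney cotransporters *Slc12a1* and *Slc12a3* were under 0.4 TPM in every library.

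**Figure D5:**
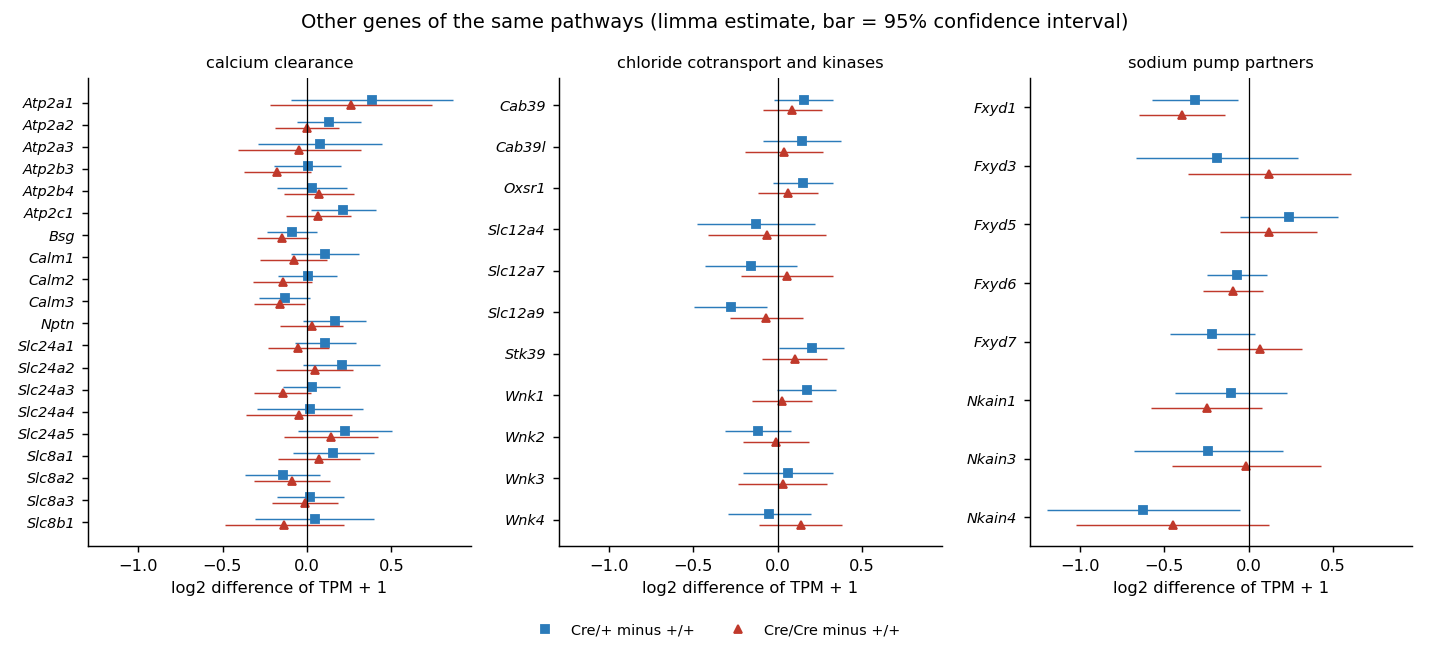
Log2 difference of TPM + 1 with its 95% confidence interval (limma) for 39 of the 44 tested genes of the sodium pump, calcium clearance and chloride lists; blue squares compare Cre/+ with +/+ and red triangles Cre/Cre with +/+. Most intervals cross 0, and those of *Fxyd1* lie below 0 in both comparisons, which share the +/+ libraries.

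For each of the 7 genes, the genes most like it over the 9 libraries were named by Pearson's r of log2(TPM + 1), as a description. The points share libraries, totals and the low library Cre/Cre 1. Each neighbour was picked for the highest r among all tested genes, so a high r was set by the choice. The r without Cre/Cre 1 is for the same picked genes and is no separate check. *Atp1b1* was nearest to *Pou4f1*, a ganglion cell transcription factor (r = 0.98 and 0.925 without Cre/Cre 1), and to *Plekha5* (0.979 and 0.918). *Atp1b2* was nearest to *Dpp6* (0.983) and *Atxn7l3* (0.98), which fell to 0.84 and 0.774 without that library. *Slc12a5* was nearest to *Aatk* (0.98 and 0.98) and *Fbxl16* (0.973 and 0.972).

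*Atp2b1* was nearest to *Mbnl2* (0.991) and *Npepps* (0.99), *Atp2b2* to *Alk* (0.983) and *Bace1* (0.96), *Slc12a2* to *Fundc1* (0.987) and *Twf1* (0.985), and *Atp1b3* to *Gnpnat1* (0.945) and *Psma3* (0.941). Without Cre/Cre 1 these r were between 0.915 and 0.992. Among the 7 genes themselves, the highest r was that of *Atp2b1* with *Slc12a2* (0.862, and 0.769 without Cre/Cre 1). That of *Atp1b1* with *Atp1b2* was 0.792 over the 9 libraries and -0.31 without Cre/Cre 1, so it rested on that library.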

How the data were processed

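Whole-retina RNA of 9 mice (3 +/+, 3 Cre/+, 3 Cre/Cre, as labelled) was analysed from gene tables. The authors sequenced strand-specific poly(A) libraries as paired reads of 150 bases, and the submitters' processing notes name Trimmomatic, FastQC, HISAT2, SAMtools, StringTie, DESeq2 and mm10. Versions and annotation are not given in the sources used here. The authors deposited TPM, scaled to 1000000 per library, FPKM before that scaling, and coverage, the mean reads per base. No counts were used, so counting error per gene was not computed and the authors' DESeq2 test was not repeated.

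TPM were summed by gene name. The filter kept 15198 genes whose TPM averaged 1 or more. They were tested on log2(TPM + 1) with limma 3.58.1 (R 4.3.3; trend and robust prior), in 1 model of all 9 libraries whose only term was genotype, with Benjamini-Hochberg adjustment and a limit of 0.05. Fold changes on this scale understate those of low genes. The code was tested on simulated data. The 7 genes and the lists were chosen with earlier results of these data known. Named beside the 7 genes were list genes with an unadjusted p under 0.05 in any comparison, the 3 of each list with the highest mean TPM, the 2 genes most correlated with each of the 7, and markers. *Atp1b4*, *Atp2b3*, *Atp2b4*, *Slc12a1* and *Slc12a3*, other members of the lists, were named after their values were seen. Some genes that this rule names are not reported here. Alternatives were a pseudocount of 0.1, no filter or a mean TPM of at least 5, replicate number as a block, only the genotypes compared, median-ratio scaling, FPKM, a total without ribosomal and short RNA genes, no robust prior, *Xist* as a covariate and each library left out. Promoter windows are from RefSeq, transcripts from GENCODE vM21. Python 3.11.15 with matplotlib 3.10.9 drew the plots.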

Additional observations from a re-analysis of the deposited data

How the results depend on the processing

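The counts of genes past the adjusted limit, 0 of the 7 genes and 0 of the 44 other pathway genes in each of the 3 comparisons, were the same under the 10 other settings and with each of the 9 libraries left out. The smallest adjusted p of any of the 7 genes was 0.152 by limma, for *Slc12a5* between Cre/+ and +/+ with only these genotypes in the fit. Of the 21 differences, 14 never changed sign. The others lay between -0.06 and 0.05 in the main fit, and several were larger with a library left out. Between Cre/+ and +/+, *Atp1b1* was at -0.0058 with FPKM and ranged from -0.0012 to 0.0525 with a library left out, and *Atp2b2* from -0.088 to 0.0291. Between Cre/Cre and +/+, *Atp1b3* was at -0.0041 with FPKM and ranged from -0.0378 to 0.1415 with a library left out, and *Slc12a2* from -0.0342 to 0.1613. *Atp2b1* was at 0.0287 with median-ratio scaling and 0.0559 with the total without ribosomal and short RNA genes, and ranged from -0.1092 to 0.1039. Between Cre/Cre and Cre/+, *Atp1b2* ranged from -0.0926 to 0.0053 and *Atp2b2* from -0.1525 to 0.0167. The causes were not tested.

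Without Cre/Cre 3, the unadjusted limma p of *Atp1b1* and *Atp2b1* between Cre/Cre and Cre/+ fell to 0.0259 and 0.0112. With only the compared genotypes in the fit, *Atp1b3* and *Atp2b1* reached 0.0496 and 0.0412 between Cre/+ and +/+, and *Slc12a2* reached 0.049 without +/+ 1 and 0.0497 without Cre/Cre 1. The labels number replicates alike in each genotype. Deviations of same-numbered libraries correlated at -0.116 to 0.128, and those of different-numbered libraries at -0.194 to 0.261. Such correlations cannot show whether same-numbered mice shared a litter or were handled together, and the main fit left the libraries unpaired. With the replicate block, 0 of the 7 genes were called in each comparison, and *Slc12a5* between Cre/+ and +/+ was at -0.19 (adjusted p = 0.48 by limma). Genes with an unadjusted p under 0.05 between Cre/+ and +/+ numbered 744 higher and 884 lower, and 1225 and 1189 with median-ratio scaling. The 3 libraries of each genotype and the absence of counts here limit the precision.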
